A study of Rattus norvegicus with 12 samples.

Results

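The small leucine-rich proteoglycans (SLRPs) decorin (Dcn), biglycan (Bgn), lumican (Lum), PRELP (Prelp), fibromodulin (Fmod), osteoglycin (Ogn), osteomodulin (Omd) and asporin (Aspn), together with the large proteoglycan versican (Vcan), were followed in 2 rat models of renal fibrosis. The 9 genes were chosen by symbol, and each was listed once in both expression tables. There were 22132 entries in the adenine table, which includes the control rats, and 32623 in the UUO table, which includes the sham rats. Kidney RNA came from 12 male Sprague-Dawley (SD) rats labelled wild type and bought at 8 weeks of age, 3 different rats in each of 4 groups. In the adenine group, rats were given adenine by gavage daily for 3 weeks, and the control group received normal saline over the same 3 weeks. In the unilateral ureteral obstruction (UUO) group, the left ureter was tied at both ends, and the sham group had the operation without ligation; kidneys were taken 2 weeks later. One model is therefore a systemic chemical injury and the other a surgical injury of a single kidney, and they also differ in duration and in control procedure. The values are FPKM, in which fragment numbers are divided by the length of the transcript and the size of the library, so levels of different genes can be set side by side within a table.

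SLRPs are secreted proteins whose curved leucine-rich core binds collagen fibrils and limits how fibrils fuse and thicken. Decorin and biglycan carry chondroitin or dermatan sulfate chains, lumican, fibromodulin, osteomodulin and osteoglycin can carry keratan sulfate or tyrosine sulfate groups, and asporin carries an aspartate-rich stretch in place of a chain. Versican is a large chondroitin sulfate proteoglycan that binds hyaluronan, and in the kidney these genes are expressed mainly by fibroblasts and other stromal cells.

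The libraries carried the markers of kidney tissue. Summed over 6 proximal tubule markers, FPKM was 1428 to 2012 in control rats and 147 to 403 in adenine rats, and 1889 to 2107 in sham rats and 272 to 494 in UUO rats. Summed over 5 macrophage markers, it was 30.5 to 35.2 against 758 to 1047 with adenine and 35.5 to 45.3 against 372 to 589 after UUO. Summed over the fibroblast markers in each table, it was 49.7 to 59.8 against 212 to 255, and 54.3 to 66.0 against 407 to 1032. Of the proximal tubule markers, 4 of 6 were called downregulated with adenine and 3 of 6 after UUO, by the limma test given later. All 5 macrophage markers were called upregulated in both models, and so were 2 of 7 and 6 of 8 fibroblast markers. The 2 called with adenine were the matrix genes Col1a1 and Postn. The 5 smooth muscle and myofibroblast markers summed to 58.6 to 89.0 in control rats and 188 to 209 in adenine rats (1 of 5 called upregulated), and to 54.1 to 108 in sham rats and 664 to 1604 in UUO rats (4 of 5). The 4 T cell markers summed to 4.45 to 6.38 against 15.7 to 30.8 (2 of 4), and to 4.07 to 7.06 against 38.8 to 119 (4 of 4). The sum over the 4 mesothelium and capsule markers overlapped in the adenine model, with 1 of 2 tested called. It was 5.29 to 8.25 in sham rats and 28.7 to 45.1 in UUO rats, with 2 of 3 tested called. Taken singly, Msln and Upk3b were higher in every adenine rat than in every control rat, and Wt1 and Lrrn4 overlapped. Some rats stood apart within their group. The sum over 4 adipocyte markers was 258 in adenine rat 1 against 9.27 and 8.04 in the other two, and 78.5 in UUO rat 1 against 9.27 and 10.4; leptin (Lep), an adipocyte hormone, was at the lowest value of its table in both other rats of either group. None of the adipocyte markers was called in the adenine model, and 1 of 2 tested was called downregulated after UUO. In control rat 2, the sum over 4 podocyte markers was 30.5, against 140 and 193 in the other two, and the sum over 4 urothelium markers was 6.90 against 0.74 and 1.46. The sum over 4 urothelium markers was 69.4 to 136 in the UUO group and 0.65 to 2.65 in the sham group, and all 4 were called upregulated. These are whole-tissue samples, so more cells of a type and more RNA per cell cannot be told apart, and the part of these shifts in the results that follow was not tested.

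Biglycan and decorin were the most abundant of the 9 genes in every group. Together they held between 83.4% and 92.1% of the summed FPKM of the set. The sum over the 9 genes was 99.0 ± 30.4 (SD, n = 3) in control rats and 519.6 ± 63.0 in adenine rats, and 132 ± 12.6 in sham rats and 1088 ± 95.8 in UUO rats. In the control group, the order by mean FPKM was Bgn, Dcn, Prelp, Ogn, Aspn, Fmod, Lum, Omd and Vcan. The ranges of Bgn and Dcn overlapped there, as did those of each neighbouring pair from Aspn down to Vcan. In the adenine group, Lum stood directly after Prelp, with overlapping ranges, and Omd and Aspn came last. The sham group had the order Bgn, Dcn, Prelp, Ogn, Fmod, Omd, Vcan, Lum and Aspn, and neighbours from Omd down overlapped. In the UUO group, Lum again stood directly after Prelp, here without overlap, but its range overlapped that of Ogn.

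**Figure D1:**
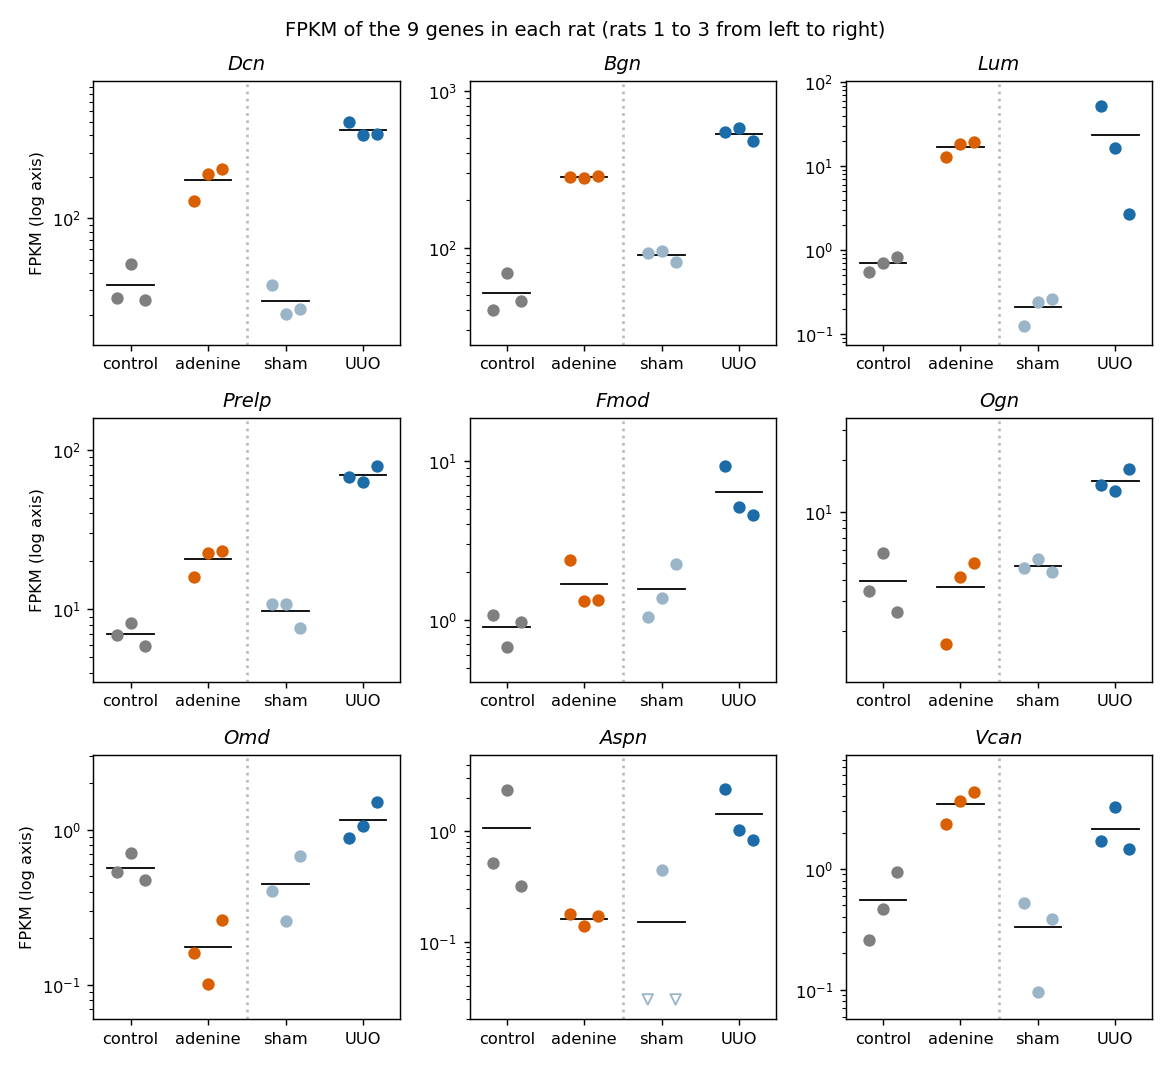
FPKM of each gene in each rat on a log axis, with 1 panel per gene; points are rats 1 to 3 from left to right in each group, and black lines are group means. The dotted line separates the 2 tables, and the open triangles for Aspn mark the 2 sham rats listed at 0.0001, drawn at the foot of the axis. All 9 genes were higher in every UUO rat than in every sham rat, and Omd and Aspn were lower in every adenine rat than in every control rat.

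In the adenine model, 4 of the 9 genes were called upregulated, Dcn, Lum, Bgn and Vcan, by limma. A call required a log2 fold change of 2 or more in either direction with an adjusted p (Benjamini-Hochberg) under 0.05. Of all 15029 entries tested in that table, 10.7% were called upregulated. In the UUO model, 6 were called, Dcn, Lum, Bgn, Prelp, Aspn and Vcan, against 13.2% of 15043 entries. No member was called downregulated in either model, against 5.03% and 4.21% of entries. With no minimum fold, 5 of the 7 members tested (Prelp added) passed the adjusted p in the adenine model, as 59.4% of entries did, and all 9 in the UUO model, as 70.5% did. Of the 7 members tested in the adenine model, 6 were higher without overlap, none was lower, and Ogn overlapped. Of all tested entries, 68% did not overlap, 45% higher and 23% lower. The other two, Omd and Aspn, which were too low to be tested there, were lower without overlap. In the UUO model all 9 were higher without overlap, against 60% of entries higher and 75.7% separate in either direction, so this property was common. The count of called members was 4 without any 1 of the rats of the adenine table, the ones that stood apart included. Control rat 2 was the highest control rat for 6 of the 9 members, Dcn, Bgn, Ogn, Aspn, Omd and Prelp. It was also the highest for 34.85% of all tested entries. Adenine rat 3 was the highest adenine rat for 7 of the 9 members, all but Fmod and Aspn, and for 35.27% of all tested entries. Without control rat 2, the log2 fold change was 2.85 for Dcn, 2.71 for Bgn, 1.66 for Prelp and 0.13 for Ogn. With all rats, these were 2.56, 2.49, 1.54 and -0.17. Without adenine rat 3, they were 2.41, 2.475, 1.45 and -0.47. In the UUO table the count of called members was 6 without sham rat 1 or UUO rat 1, 5 without sham rat 2, and 7 without sham rat 3, UUO rat 2 or UUO rat 3. An entry was tested if it reached an FPKM of 0.5 in at least 3 of 6 samples. In the adenine model 7 members reached it. All 9 did in the UUO model, where Lum and Aspn reached it only through the UUO rats. Over all tested entries, the median log2 fold change was 0.30 for adenine and 0.62 for UUO. Relative to these medians, Dcn rose by 2.26 and 3.53, Bgn by 2.19 and 1.95, and Lum by 4.10 and 4.86 on the log2 scale. Median-of-ratios scaling moved the medians to 0.07 and 0.08. Calls up and down in the adenine model then went from 1604 and 756 to 1377 and 915, and those of the UUO model from 1980 and 633 to 1308 and 917. After quantile normalization they were 1203 and 975 for adenine, and 1114 and 944 for UUO.

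**Figure D2:**
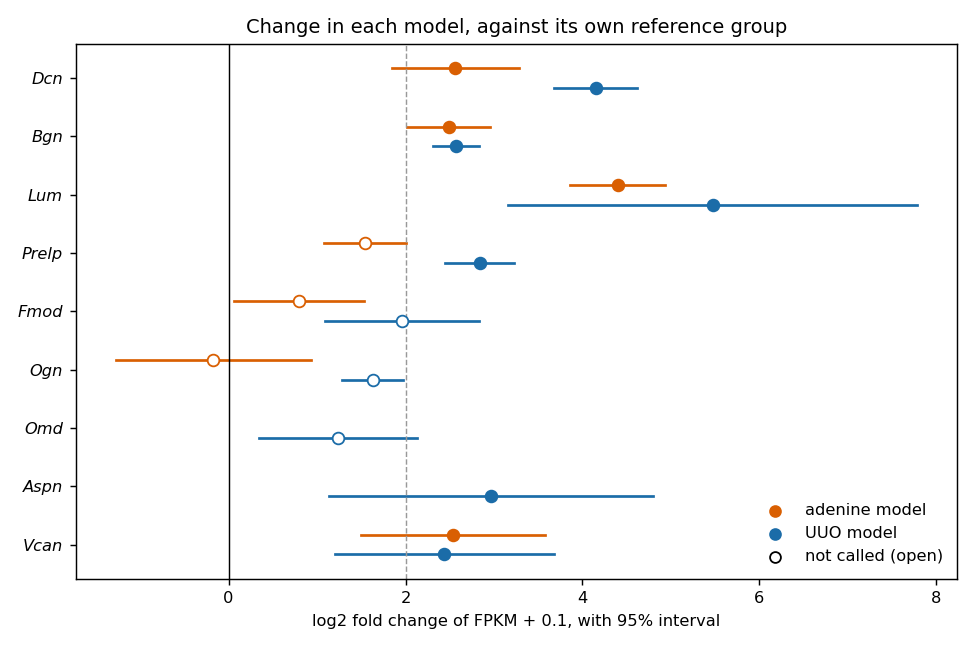
Log2 fold change of FPKM + 0.1 for each gene in the adenine model (against control) and the UUO model (against sham), with 95% intervals from limma; filled points were called and the dashed line is the fold threshold of 2 on the log2 scale. Omd and Aspn were under the expression filter in the adenine table and have no adenine point. Bgn and Vcan lay at nearly the same change in both models, and Dcn and Prelp lay further right in the UUO model.

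Decorin, which binds collagen fibrils and also transforming growth factor beta, had FPKM of 26.3, 46.8 and 25.3 in the control rats and 133, 211 and 229 in the adenine rats. Dcn rose by 2.56 on the log2 scale (SE 0.30, 5.90-fold, adjusted p = 0.000533, limma). Every adenine rat was well above every control rat, with adenine rat 1 the lowest of the 3. In the sham rats, the Dcn values were 33.0, 20.2 and 21.8 FPKM, and in the UUO rats they were 497, 404 and 409. Its log2 fold change was 4.15 (SE 0.20, 17.7-fold, adjusted p = 1.46e-05, limma). The 3 UUO rats lay close together, and Dcn ranked 192 by log2 fold change among the 15043 entries of that table.

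Biglycan, a close relative of decorin that is also a ligand of Toll-like receptors when it is freed from the matrix, had FPKM of 40.1, 68.5 and 46.0 in the control rats and 279.9, 279 and 287 in the adenine rats. Its log2 fold change was 2.49 (SE 0.20, 5.61-fold, adjusted p = 0.00012, limma). The adenine rats differed by a factor of 1.03 only, and 98.6% of the 14176 entries compared had a wider range in that group. The sham rats had 92.6, 95.3 and 80.6 FPKM and the UUO rats 542, 575 and 479. Here it rose by 2.57 on the log2 scale (SE 0.11, 5.94-fold, adjusted p = 1.26e-05, limma), so that biglycan changed by almost the same factor in both models.

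The balance between these 2 genes differed between the sham and UUO groups. Per library, the ratio of Bgn to Dcn FPKM was 2.81 to 4.73 in sham rats and 1.09 to 1.42 in UUO rats, without overlap. In the other table, the ratio was 1.46 to 1.82 in control rats and 1.25 to 2.10 in adenine rats, with overlap. The ratio of Dcn to the collagen I chain Col1a1 was lower with adenine, 1.14 to 2.04 against 2.98 to 3.83 in control rats. The same ratio overlapped between sham (1.79 to 9.78) and UUO (0.961 to 3.35). For Bgn to Col1a1, the ratio was lower without overlap in both models. It was 2.20 to 2.55 in adenine rats against 5.41 to 5.61, and 1.05 to 3.93 in UUO rats against 6.62 to 27.5. For Lum to Col1a1, it was higher with adenine, 0.110 to 0.170 against 0.0583 to 0.0975. After UUO that ratio overlapped, 0.0224 to 0.0998 against 0.0217 to 0.0371. These ratios were examined after the levels were known and are descriptions without a test.

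Lumican, which is needed for regular fibril spacing in the cornea and binds collagen in many tissues, had the largest change of the 9 genes in both models, except that Dcn changed more after UUO with a pseudocount of 1 (4.10 against 3.65 on the log2 scale). FPKM was 0.550, 0.711 and 0.828 in the control rats and 12.9, 18.2 and 19.2 in the adenine rats. Lum thus had a log2 fold change of 4.40 (SE 0.22, 21.1-fold, adjusted p = 3.37e-05, limma). The groups were far apart, and the rats differed by a factor of 1.51 within the control group and 1.49 within the adenine group. The sham rats had 0.125, 0.241 and 0.265 FPKM, while the UUO rats had 51.6, 16.7 and 2.73. For UUO the fitted log2 fold change was 5.47 with an SE of 0.97 (adjusted p = 0.00219, limma), and its 95% interval ran from 3.16 to 7.78. Every UUO rat was above every sham rat, but the UUO rats differed from each other by 18.9-fold. Only 9 of 14278 entries (0.0630%) had a wider range in the UUO group. The ratio of Dcn to Lum was 30.6 to 65.7 in control rats and 10.4 to 11.96 in adenine rats, without overlap. It was 82.5 to 263 in sham rats and 9.63 to 149.8 in UUO rats, with overlap.

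The UUO rats had the same order, rat 1 highest and rat 3 lowest, for several other matrix genes, which were chosen after their values were seen. Col1a1 had 517, 262 and 122 FPKM in UUO rats 1 to 3, and Col3a1, a chain of collagen III, had 1022, 531 and 335. Periostin (Postn), a matrix protein of activated fibroblasts, had 70.5, 27.7 and 1.60, and Tnfaip6, which modifies hyaluronan, had 10.2, 3.27 and 1.65. That order held for 8 of the 13 collagen genes tested, for 3 of the 8 fibroblast markers, and for 14.2% of the 15043 tested entries. Among the members, it held for Lum, Fmod and Aspn. The summed fibroblast markers were 1032, 619 and 407 FPKM in these rats. That order came from the matrix genes Col1a1, Col1a2 and Postn, and the other 5 fibroblast markers summed to 208, 199.7 and 206, close to each other. These 5 did not move together. Thy1 (56.6, 58.8 and 31.2) and Gli1 (1.71, 2.78 and 1.06) were lowest in rat 3. Tcf21 (88.7, 78.7 and 100) and Pdgfra (31.6, 28.8 and 42.3) were highest there, and Pdgfrb was nearly level (29.1, 30.6 and 30.5). The split was made after the values were seen, and the number of fibroblasts in each rat was not tested. UUO rat 1 also stood apart in the summed adipocyte markers, with 78.5 FPKM against 9.27 and 10.4 in UUO rats 2 and 3. The part of those cells in its values was not tested. Without UUO rat 3 the log2 fold change of Lum was 6.60, the highest value when any 1 sample was left out, and without UUO rat 1 it was 4.50, the lowest.

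**Figure D3:**
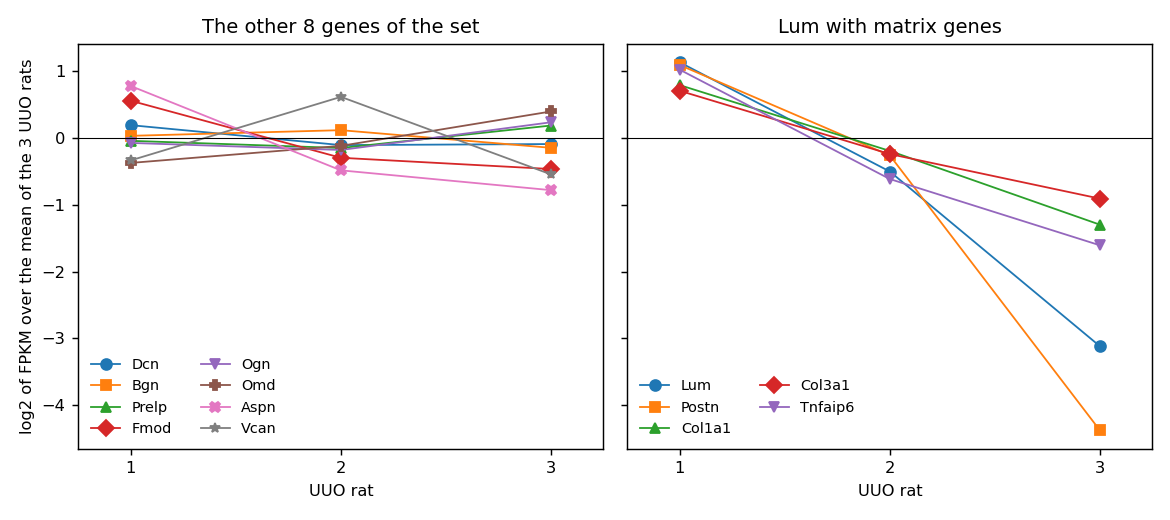
FPKM in each of the 3 UUO rats relative to the mean of the 3, on a log2 axis, for the other 8 genes (left) and for Lum beside 4 matrix genes chosen after their values were seen (right). Lines join the values of a gene and carry no order in time. Dcn, Bgn, Prelp and Ogn stayed near 0 in all 3 rats, whereas Lum and Postn were more than 3 log2 units under their mean in rat 3.

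Lum lies next to Dcn on chromosome 7 in the GRCr8 rat assembly, followed by keratocan (Kera) and epiphycan (Epyc). RefSeq promoter sequences on GRCr8, 250 bases before to 50 bases after the start, were held for 6 of the 9 genes. The promoter of Lum is printed because Lum changed most. Short motifs were searched on both strands, and matches are in capitals. The core promoter box, letters TATAAA, was held by 14.2% of all 33469 promoters of the same length. The motif of the factor NF-Y, letters CCAAT, was held by 37.5%, and the AP-1 motif, letters TGANTCA, by 7.33%. A SMAD-binding element, letters CAGACA, was held by 21.1%, and the TEAD motif, letters GGAATG, by 14.2%. In Lum, the only match was an NF-Y motif on the opposite strand.
Lum (chr7:34245456-34245755, plus strand): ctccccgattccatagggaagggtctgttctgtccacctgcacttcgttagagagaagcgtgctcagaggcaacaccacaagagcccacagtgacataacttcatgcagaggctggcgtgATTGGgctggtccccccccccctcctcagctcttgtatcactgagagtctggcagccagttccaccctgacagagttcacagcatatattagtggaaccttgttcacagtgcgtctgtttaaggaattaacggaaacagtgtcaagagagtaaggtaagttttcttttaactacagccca

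PRELP, which links basement membranes to the connective tissue beneath, had FPKM of 6.89, 8.19 and 5.86 in the control rats and 16.0, 22.7 and 23.2 in the adenine rats. Its log2 fold change was 1.54 (SE 0.20, 2.91-fold, adjusted p = 0.00072, limma), under the fold threshold. The sham rats had 10.8, 10.8 and 7.70 FPKM and the UUO rats 67.6, 62.8 and 79.2. Here the log2 fold change was 2.84 (SE 0.16, 7.14-fold, adjusted p = 2.49e-05, limma). Groups were separate in both models, and UUO rat 3, the lowest in Lum, was the highest in Prelp.

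Fibromodulin, which shares a collagen binding site with lumican and lies next to Prelp on chromosome 13, changed less. RefSeq places a long non-coding RNA gene over each of Dcn, Prelp and Fmod, for which no values were used here. FPKM was 1.07, 0.678 and 0.962 in the control rats and 2.38, 1.32 and 1.33 in the adenine rats. Its log2 fold change of 0.80 (SE 0.31, adjusted p = 0.0624, limma) did not pass the test although the groups did not overlap. The sham rats had 1.04, 1.36 and 2.26 FPKM and the UUO rats 9.27, 5.14 and 4.57, which is 1.96 higher on the log2 scale (SE 0.36, 3.89-fold, adjusted p = 0.00274, limma). That value is just under the fold threshold of 2, and Fmod was called without sham rat 3, without UUO rat 2 or without UUO rat 3.

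Osteoglycin, osteomodulin and asporin lie side by side on chromosome 17, inside the span of Cenpp, a kinetochore gene on the opposite strand. Osteoglycin, also called mimecan, had FPKM of 3.43, 5.72 and 2.59 in the control rats and 1.68, 4.15 and 5.03 in the adenine rats. These groups overlapped, and the log2 fold change was -0.17 (SE 0.46, 95% interval -1.28 to 0.93, adjusted p = 0.769, limma). In the sham rats it had 4.70, 5.28 and 4.41 FPKM and in the UUO rats 14.3, 13.3 and 17.7. All 3 UUO rats were higher, with a log2 fold change of 1.63 (SE 0.15, 3.09-fold, adjusted p = 0.000113, limma), under the fold threshold.

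Osteomodulin, a keratan sulfate proteoglycan first described in bone, was low in all groups. It had FPKM of 0.535, 0.704 and 0.474 in the control rats and 0.162, 0.101 and 0.261 in the adenine rats. All adenine rats were lower, under the expression filter. Without the filter, the log2 fold change was -1.32 (SE 0.32, adjusted p = 0.0179, limma). The sham rats had 0.401, 0.259 and 0.681 FPKM and the UUO rats 0.886, 1.06 and 1.51, all higher, with a log2 fold change of 1.24 (SE 0.37, adjusted p = 0.0221, limma). The UUO change no longer passed with no filter (adjusted p = 0.113, limma), with median-of-ratios scaling (adjusted p = 0.117, limma) or with quantile normalization (log2 fold change 0.38, adjusted p = 0.361, limma). It also did not pass without sham rat 1 (log2 fold change 1.21), sham rat 2 (0.97) or UUO rat 3 (1.04). Whichever rat of the table was left out, the log2 fold change was between 0.97 and 1.53.

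Asporin, which binds collagen and can hold back transforming growth factor beta, had FPKM of 0.511, 2.38 and 0.319 in the control rats and 0.177, 0.137 and 0.172 in the adenine rats. The adenine rats were lower, with control rat 2, which also stood apart in podocyte and urothelium markers, far above the rest. The part of those cells in this value was not tested. Without the filter, the log2 fold change was -1.72 (SE 0.67, adjusted p = 0.0839, limma), which did not pass the test. Of the sham rats, 2 were listed at 0.0001, the lowest value of that table, and the other, rat 2, had 0.449 FPKM, against 2.43, 1.01 and 0.826 in the UUO rats. Aspn was called with a log2 fold change of 2.96 (SE 0.77, adjusted p = 0.0117, limma), but it had passed the filter only through the UUO rats, the group in which it is high. The call was lost with no filter (adjusted p = 0.0726, limma), with quantile normalization (adjusted p = 0.0614, limma) and with a pseudocount of 1, where the log2 fold change was 1.04. At a minimum FPKM of 1, Aspn was not tested. With a pseudocount of 0.01 its log2 fold change was 5.15. Without sham rat 2, the only sham rat with a value over the lowest, it was 3.78.

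Thus the 3 neighbours were all higher in the UUO group, while in the adenine group none was higher. Cenpp, whose span covers them, had 10.1, 10.4 and 4.86 FPKM in the control rats and 0.334, 1.12 and 0.904 in the adenine rats, and fell by 3.32 on the log2 scale (SE 0.47, adjusted p = 0.00116, limma). It had 5.50, 10.7 and 8.96 in the sham rats and 1.20, 0.858 and 2.26 in the UUO rats, and fell by 2.52 (SE 0.39, adjusted p = 0.0012, limma). Cenpp was thus lower in both models. The library preparation marked the strand, but whether strand was used in the FPKM calculation is not given in the sources used here, and whether reads of Cenpp entered the values of the 3 genes was not tested. Opticin (Optc), an SLRP next to Prelp and under the filter in the adenine table, had 0.509, 0.392 and 0.662 FPKM in the control rats and 0.186, 0.246 and 0.200 in the adenine rats. In the UUO model it went from 0.118, 0.151 and 0.139 to 0.625, 0.744 and 0.884 (log2 fold change 1.84, SE 0.30, adjusted p = 0.00157, limma). Optc was chosen after its values were seen, and it passed the filter there only through the UUO rats, the group in which it is high.

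The promoters of the 3 neighbours are shown because these genes were all higher in the UUO group and none was higher in the adenine group. The Ogn promoter held 2 overlapping matches to TATAAA, on opposite strands, and 1 match to GGAATG. The Omd and Aspn promoters held none of the 5 motifs, and each line is in lower case apart from the matches.
Ogn (chr17:15258946-15259245, minus strand): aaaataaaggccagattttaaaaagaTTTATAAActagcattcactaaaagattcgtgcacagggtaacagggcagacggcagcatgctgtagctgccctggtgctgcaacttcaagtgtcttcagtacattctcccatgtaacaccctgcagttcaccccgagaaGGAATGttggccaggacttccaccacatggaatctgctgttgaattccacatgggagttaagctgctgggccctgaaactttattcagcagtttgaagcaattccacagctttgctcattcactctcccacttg
Omd (chr17:15274821-15275120, minus strand): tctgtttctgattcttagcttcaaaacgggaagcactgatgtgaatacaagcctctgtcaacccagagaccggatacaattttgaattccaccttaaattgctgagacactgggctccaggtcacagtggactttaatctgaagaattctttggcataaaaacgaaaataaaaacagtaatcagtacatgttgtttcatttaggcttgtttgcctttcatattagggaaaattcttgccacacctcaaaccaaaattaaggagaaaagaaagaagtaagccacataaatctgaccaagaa
Aspn (chr17:15310420-15310719, minus strand): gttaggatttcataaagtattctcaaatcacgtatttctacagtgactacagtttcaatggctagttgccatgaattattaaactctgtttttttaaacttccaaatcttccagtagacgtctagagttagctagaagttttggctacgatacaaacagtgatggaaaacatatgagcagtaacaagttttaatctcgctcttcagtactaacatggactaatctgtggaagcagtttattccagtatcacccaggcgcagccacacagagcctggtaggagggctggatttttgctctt

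Versican, the only member outside the SLRP family, had FPKM of 0.259, 0.462 and 0.936 in the control rats and 2.35, 3.64 and 4.36 in the adenine rats. Versican rose by 2.54 on the log2 scale (SE 0.43, 5.80-fold, adjusted p = 0.00262, limma). The sham rats had 0.521, 0.0956 and 0.385 FPKM and the UUO rats 1.69, 3.26 and 1.46, with a log2 fold change of 2.44 (SE 0.52, 5.42-fold, adjusted p = 0.00496, limma). Groups were separate in both models, but values were low and spread widely among the reference rats. Both calls were lost with a pseudocount of 1, with log2 fold changes of 1.51 for adenine and 1.20 for UUO. The UUO change was also under the fold threshold without sham rat 2 (1.94), with median-of-ratios scaling (1.98) and with quantile normalization (1.63). The other promoters held were those of Vcan and Fmod; an NF-Y motif was found in 1 of 2 Vcan promoters and in that of Fmod.

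Whether a gene changed by different amounts in the 2 models was tested from the difference of its log2 fold changes over 13486 symbols. At an adjusted p under 0.05 and a difference of at least 1, 12.8% were called, 9.44% with a log2 fold change that was higher in the UUO model and 3.37% with one that was higher in the adenine model. Of the 7 members tested in both tables, 3 were called, all higher in the UUO model. For Dcn the difference, UUO minus adenine, was 1.59 (95% interval 0.82 to 2.36, adjusted p = 0.00669). For Ogn it was 1.80 (0.75 to 2.84, adjusted p = 0.0162), and for Prelp it was 1.30 (0.75 to 1.84, adjusted p = 0.00316). All 3 adjusted p-values came from the limma fits of both tables with Benjamini-Hochberg correction. The median change over all entries was itself larger after UUO. Under median-of-ratios scaling, which brings both medians close to 0, Dcn and Ogn were still called, and Prelp had a difference of 0.99, just under the threshold.

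For the other members, a difference was not shown. For Bgn it was 0.08 with an interval of -0.40 to 0.57, so that a difference beyond the called size of 1 lies outside the interval. For Vcan it was -0.10, but the interval of -1.55 to 1.36 is wide. For Fmod it was 1.16 (0.13 to 2.19, adjusted p = 0.085, limma) and for Lum it was 1.08 (-1.07 to 3.22, adjusted p = 0.447, limma). Without UUO rat 3, the difference of Lum was 2.20 and was called, and Fmod was called without adenine rat 1 (1.43) or sham rat 3 (1.45). Omd and Aspn were called, as higher in the UUO model, only when no filter was used. The models differ in agent, duration and control procedure. Each also has its own expression table, with its own entries and lowest value. The parts of these in a difference between the models cannot be told apart here.

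The genes whose values over all 12 samples were most like those of a member, each table centred on its own mean, were named by a rule set for every member tested in both tables. For Lum they were Postn (Pearson r = 0.991) and Col6a2 (r = 0.982), a collagen VI chain. For Dcn they were Nlrc5 and Ms4a18 (r = 0.995 and 0.994). For Prelp they were Ube2d2 and Rhob (r = 0.996 and 0.995), for Vcan Sh3gl3 and Batf2 (r = 0.989 and 0.976), and for Fmod Hexim2 and Miip (r = 0.971 and 0.969). Such values were common for some members, since 1797, 1297 and 1160 of 13479 symbols had an r over 0.95 with Bgn, Dcn and Prelp. They were rarer for Lum, with 191 symbols, and for Vcan and Fmod, with 20 and 15. None reached 0.95 with Ogn, whose nearest were Perp and Twsg1 (r = 0.943 and 0.939). The samples share their group differences, so r over 12 samples is a description of the pattern only.

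Most of the collagens that SLRPs and their partners bind rose in both models. In the adenine model, 9 of 11 tested collagen genes were called upregulated and 1 downregulated, and in the UUO model 10 of 13 were upregulated and none downregulated. For this list and those that follow, the shares over all tested entries were the 10.7% up and 5.03% down with adenine and the 13.2% up and 4.21% down after UUO given earlier. Their median log2 fold change was 3.20 for adenine and 4.03 for UUO. Col14a1, which encodes a collagen on the fibril surface, had a mean FPKM of 0.216 ± 0.106 (SD, n = 3) in control rats and 10.5 ± 4.87 in adenine rats, and rose by 5.00 on the log2 scale. Col14a1 passed the filter only through the adenine rats, the group in which it is high, and the counts of these lists include such genes. Col6a1, a collagen VI chain, went from 5.70 ± 0.24 to 103 ± 11.9. In the UUO model, the largest rises were those of Col1a1 and Col3a1, with log2 fold changes of 5.27 and 5.10. Col11a2 fell in the adenine model, from 2.91 ± 1.29 to 0.558 ± 0.207 FPKM. The log2 fold change was higher in the UUO model for 3 collagen genes, Col11a2 by 1.87 (adjusted p = 0.0304, limma), Col12a1 by 1.37 (adjusted p = 0.00304, limma) and Col5a1 by 1.16 (adjusted p = 0.0184, limma).

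Proteases that cut versican or process SLRPs were called upregulated for 5 of 10 genes with adenine and for 9 of 12 after UUO, with none downregulated. Mmp2, a gelatinase, went from 3.61 ± 0.96 FPKM (SD, n = 3) with saline to 60.7 ± 12.7 with adenine, and from 4.95 ± 1.41 after sham surgery to 109.6 ± 32.5 after UUO. Mmp14, which activates Mmp2, rose by 3.50 on the log2 scale with adenine. Mmp13, a collagenase, was at 0.0292, 0.0001 and 0.0630 FPKM in the sham rats and 2.36, 18.1 and 4.82 in the UUO rats. Mmp13 passed the filter there only through the UUO rats, the group in which it is high. Of the ADAMTS proteases known to cut versican, Adamts1 rose by 2.93 and 3.96 on the log2 scale in the adenine and UUO models, and Adamts4 by 3.35 and 3.78. In the adenine table, Adamts4 passed the filter only through the adenine rats, the group in which it is high. Adamts5 rose by 2.37 after UUO and had 1.44, not called, with adenine. Adamts9 (0.65 and 1.56) and Adamts15 (1.13 and 1.75) were called in neither model, and Adamts20 was too low to be tested. The log2 fold change was higher in the UUO model for Htra1, by 1.35 (adjusted p = 0.0397, limma), and for the procollagen protease enhancer Pcolce, by 1.23 (adjusted p = 0.00229, limma).

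A part of the enzymes that build the sugar chains of the members rose. Of the chondroitin and dermatan sulfate enzymes, 4 of 18 were called upregulated with adenine and 7 of 20 after UUO, and none was downregulated. Chsy1, a chondroitin polymerase, was called in both, from 1.83 ± 0.12 to 10.6 ± 0.94 FPKM (SD, n = 3) and from 2.28 ± 0.39 to 15.9 ± 3.37. Chst12, a chondroitin sulfotransferase, rose by 3.94 on the log2 scale with adenine and by 2.40 after UUO, a difference of -1.54 (adjusted p = 0.00388, limma). Dse, the epimerase that makes dermatan sulfate, rose by 2.83 in the UUO model and was at 1.70, not called, in the adenine model, a difference of 1.13 (adjusted p = 0.00995, limma). Xylt1, which adds the first sugar of the chain, was the reverse case, with 2.33 with adenine and 0.09 after UUO, a difference of -2.24 (adjusted p = 0.00862, limma). In the adenine table, Xylt1 passed the filter only through the adenine rats, the group in which it is high. Chpf, a chondroitin polymerizing factor, and Csgalnact1, which starts the chondroitin chain, were called in neither model, but their log2 fold changes were higher in the UUO model by 1.64 (adjusted p = 0.00134, limma) and 1.41 (adjusted p = 0.0189, limma). Of the keratan sulfate enzymes, 3 of 10 were up and 1 down in the adenine model, and 4 of 11 were up in the UUO model. St3gal1 and the sulfotransferase Chst1 led in the adenine model, with 2.69 and 2.52, and Chst5 and Chst1 in the UUO model, with 3.02 and 2.38. Chst5 passed the filter only through the UUO rats, the group in which it is high. Chst2 fell in the adenine model, from 22.0 ± 2.51 to 4.07 ± 1.79 FPKM.

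**Figure D4:**
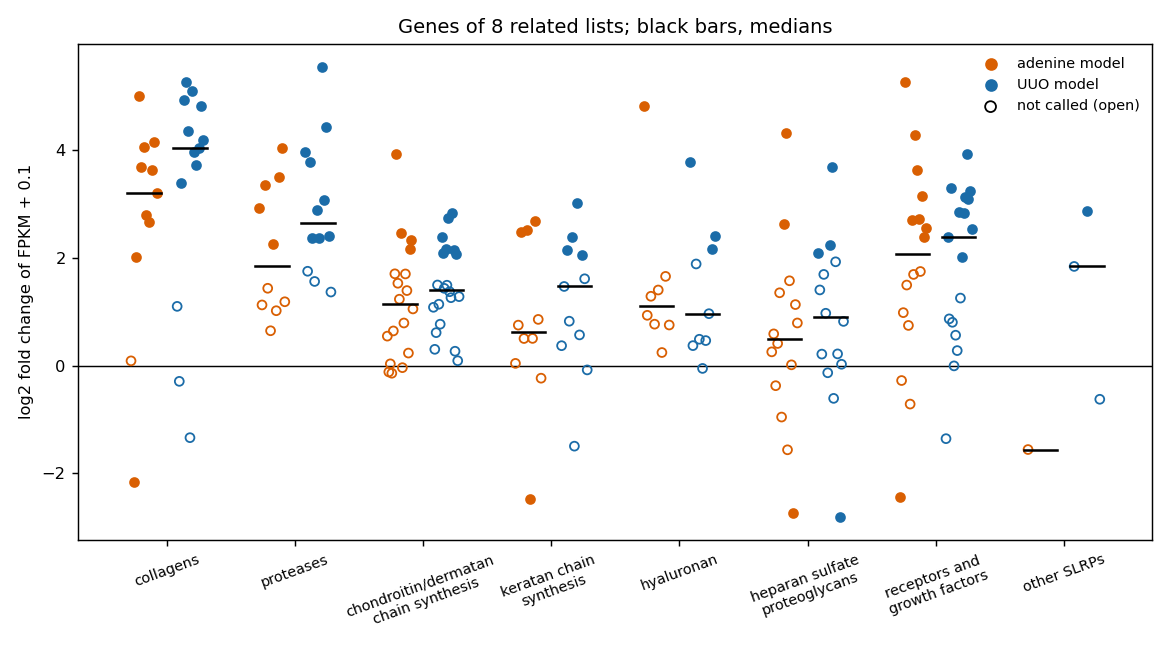
Log2 fold change of FPKM + 0.1 for each tested gene of 8 related lists in the adenine and UUO models; filled points were called, open points were not, and black bars are list medians. Collagens had the highest medians, 3.20 and 4.03, against 0.30 and 0.62 over all tested entries.

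Among genes of hyaluronan, which versican binds, 1 of 8 was called upregulated with adenine and 3 of 9 after UUO. The hyaluronan receptor Cd44 went from 3.08 ± 1.12 to 85.7 ± 4.25 FPKM (SD, n = 3) with adenine and from 4.24 ± 0.92 to 59.0 ± 6.08 after UUO, and its change was larger in the adenine model by 1.04 on the log2 scale (adjusted p = 0.025, limma). The other large hyaluronan-binding proteoglycans were low. Acan and Bcan were under the filter in both tables, and Ncan, which was listed in the UUO table only, was at 0.0001 in all 6 of its samples. Of the heparan sulfate proteoglycans, 2 of 14 were up and 1 down with adenine and 3 of 14 were up and 1 down after UUO. The counts of this list, and that of the hyaluronan genes with adenine, are near the shares over all entries. Agrn, a basement membrane proteoglycan, had log2 fold changes of 0.25 and 2.09, a difference of 1.84 (adjusted p = 0.000851, limma). Sdc1, a cell-surface syndecan, rose by 4.33 and 3.69 on the log2 scale, Gpc6, a glypican, rose by 2.63 and 2.23, and Spock1 fell by 2.74 and fell by 2.82. In the adenine table, Gpc6 passed the filter only through the adenine rats. Spock1 passed it only through the control rats and the sham rats, the groups in which it is high. Of the other SLRP genes, 1 was tested with adenine and 3 after UUO. Tsku had -1.56 and -0.63 and was not called, and Podnl1, listed at 0.0001 in all 3 sham rats, had 0.573, 0.634 and 0.684 FPKM in the UUO rats. Podnl1 passed the filter only through the UUO rats, the group in which it is high.

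Of the receptors and growth factors that SLRPs are known to bind, 8 of 16 were called upregulated and 1 downregulated in the adenine model, and 10 of 17 were upregulated in the UUO model. Cd14, the co-receptor through which biglycan reaches Toll-like receptors, rose by 5.28 with adenine and by 3.30 after UUO on the log2 scale, a difference of -1.98 (adjusted p = 0.00217, limma). P2rx7, a receptor for ATP, rose by 4.28 with adenine and by 2.02 after UUO, a difference of -2.26 (adjusted p = 0.0218, limma). Tgfb3 was the gene of this list with the largest rise in the UUO model, from 1.82 ± 0.86 to 29.2 ± 13.2 FPKM (SD, n = 3), and its log2 fold change was higher there by 2.18 (adjusted p = 0.0127, limma). Ccn2, a matricellular growth factor that decorin binds, rose by 2.40 in the UUO model and had -0.28, not called, in the adenine model, a difference of 2.67 (adjusted p = 0.00069, limma). Bmp4 fell in the adenine model, from 24.7 ± 4.11 to 4.43 ± 0.23 FPKM, and had -2.44 with adenine and -1.36 after UUO, a difference of 1.08 (adjusted p = 0.0259, limma).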

How the data were processed

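RNA from kidneys of 12 rats in 4 groups of 3 was sequenced by the authors after poly(A) selection and strand-marking library preparation. Samples were grouped by their labels, and the adenine dose was 220 mg/kg per day. The authors deposited FPKM values in 2 tables, with lowest values of 0 and 0.0001. The submitters' processing notes list cutadapt 1.9, HISAT2 2.0.4, StringTie 1.3.4d, edgeR and DESeq2; the genome build and strand setting are not given in the sources used here. Read numbers are unknown, so no counting error was calculated, and the precision of each value is the spread between 3 rats.

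Each table was fitted alone with limma 3.58.1 (lmFit, eBayes with trend; R 4.3.3) on log2(FPKM + 0.1), for entries that reached an FPKM of 0.5 in 3 or more of the 6 samples; this scale understates changes of low genes. Calls needed a Benjamini-Hochberg adjusted p under 0.05 over all tested entries and a log2 fold change of 2 or more in size. The difference between the models was divided by its standard error, combined from both fits, and referred to a t distribution with the degrees of freedom of both fits added. It was adjusted over 13486 symbols and called at an absolute value of 1 or more. An exact two-sided permutation test of 3 against 3 cannot give a p under 0.1 and was not used. Tables were handled in Python 3.11.15 (pandas 2.3.3, numpy 2.4.6, scipy 1.17.1). On simulated data, 193, 190 and 195 of 200 changed genes were called in the adenine model, the UUO model and the difference, with 0, 1 and 15 unchanged genes called. Changes in the models were of 3 on the log2 scale, beyond the fold threshold of 2. The simulated noise of a gene had the same variance in both groups. How often genes near a threshold, or with unequal spread such as Lum, are called was not tested. This includes differences of the size found for Dcn, Ogn and Prelp.

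The members, gene lists and tests were chosen with earlier results of these data known. Named are all 9 members, in each related list the 2 called genes that rose most and the 1 that fell most, if their groups did not overlap, and the 2 symbols most like each member (those of Bgn are not reported here); list genes whose change differed between the models, and any other gene, were chosen after their values were seen. Gene neighbours and promoters came from RefSeq tables of GRCr8, in which all 9 symbols matched. Alternatives were other pseudocounts, filters and scalings, no trend, a replicate block and leaving out each sample. Fold changes and p-values of the authors were not used.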

Additional observations from a re-analysis of the deposited data

Results flagged for a closer look

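Of the 9 genes, 3 were marked because the test of the difference between the models passed. The log2 fold change of Dcn was larger in the UUO model than in the adenine model by 1.59, with all 3 UUO rats above all 3 sham rats and all 3 adenine rats above all 3 control rats. That of Ogn was larger by 1.80, with all 3 UUO rats above the sham rats and the adenine and control rats overlapping. That of Prelp was larger by 1.30, with separate groups in both models. Leaving out any 1 sample gave differences of 1.30 to 1.80 for Dcn, 1.33 to 2.10 for Ogn and 1.12 to 1.41 for Prelp, and all 3 were still called in each case. Groups of 3 are too small for the test of a single sample far from the others.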

How the results depend on the processing

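The number of members called was 4 in the adenine model, with a range of 3 to 5 over the alternatives, and 6 in the UUO model, with a range of 4 to 9; the upper ends come from dropping the fold threshold. The number whose change differed between the models was 3, with a range of 2 to 5, and was 5 with no filter on low values, which adds Omd and Aspn. With a replicate block, 4, 6 and 3 members were called; samples of the same number come from different rats, and their deviations correlated by -0.123 to -0.049 in the adenine model and 0.05 to 0.105 in the UUO model, where each sample was closest to its own number. The sign of 3 results changed. The Ogn change in the adenine model was 0.092 with FPKM rescaled to the same sum, and -0.47 to 0.29 when any 1 sample was left out. The Bgn difference was -0.23 with median-of-ratios scaling, -0.13 with quantile normalization and -0.14 to 0.24 with any 1 sample left out. The Vcan difference was 0.0805 with a pseudocount of 0.01, and -0.59 to 0.27 with any 1 sample left out. None of these 3 was called in any alternative, and the cause of the sign changes was not tested. The Vcan call was lost with a pseudocount of 1 in both models. In the UUO model it was also lost with quantile normalization, with median-of-ratios scaling and without sham rat 2. The Aspn call in the UUO model was lost with a pseudocount of 1, with quantile normalization and with no filter, and Aspn was not tested at a minimum FPKM of 1. Without a read number, low values such as those of Aspn, Omd and Vcan cannot be given a counting error.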
